A study of Mus musculus with 12 samples.

Results

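The genes described here write, maintain, erase or protect DNA methylation: the methyltransferase genes Dnmt1, Dnmt3a and Dnmt3b, the cofactor gene Dnmt3l, the dioxygenase genes Tet1, Tet2 and Tet3, the maintenance factor Uhrf1, and the pair Zfp57 and Trim28. CpG positions were taken when they lay inside 1 of these 10 genes or within 5 kb of it, on mouse GRCm38, and had a methylation value in all 12 samples. There were 188 such sites, among 312650 complete sites in the whole data set. Values were percent methylation from reduced representation bisulfite sequencing (RRBS), in which the enzyme MspI cuts DNA at CCGG and bisulfite treatment separates methylated from unmethylated cytosine.

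The DNA came from the left ventricle of wild-type FVB/N offspring at 3 weeks of age, so only the diet of the mother and the sex differed by design. Mothers of the HFD group received a high-fat diet before mating and through the study, and mothers of the RD group a regular diet. All fathers were RD-fed. There were 6 HFD offspring (3 females and 3 males) and 6 RD offspring (4 females and 2 males). The labels do not say which offspring shared a mother, so p-values measure the spread between these animals, which may include littermates. The library numbers in the labels do not overlap between the diets, so library order and diet cannot be told apart.

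DNMT3A and DNMT3B place methyl groups on unmethylated CpGs, and DNMT3L, which has no catalytic activity of its own, stimulates them in germ cells. DNMT1 copies the pattern after replication at hemimethylated CpGs that UHRF1 recognises, and the TET enzymes oxidise methylated cytosine, which opens the way to its removal. ZFP57 binds a methylated motif at imprinting control regions and recruits TRIM28, which holds the silencing machinery there. Dnmt3l and Zfp57 are known for expression in germ cells and early embryos.

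The starts of these genes differ in how many CpGs they hold. RefSeq sequences on GRCm38.p6, running 250 bases before to 50 bases after an annotated start, were found for 19 starts of all 10 members. CG, which reads the same on both strands, occurred at a median of 17 positions in these promoters, against 7 over all 32851 promoters. At least 10 CGs were present in 12 of the 19 (63.2%), against 43.5% of all promoters. CCGG, the MspI site and a palindrome that contains a CG, was present in 12 of 19 (63.2%), against 52.8% of all. The 3 starts of Dnmt3l held 6, 4 and 3 CGs, all under the median of 7, and no CCGG. The 3 of Zfp57 held 6, 9 and 4, with CCGG at the last, and start 1 of Dnmt1 held the fewest of all 19, with 2. By contrast, Tet2 held 57 CGs, Dnmt3a 46 and 47 at its leading starts, and Dnmt3b 30. The sequences below set the starts of Dnmt3l and Zfp57 beside Tet1, the start with 10 measured sites inside the printed window, and Uhrf1, with 33 CGs. Each runs 5′ to 3′ on the strand of the gene, and capitals mark every CG. Of the 19 windows only that of Tet1 held complete sites, so capitals in the other sequences mark CGs without a complete value.
Dnmt3l start 1, chr10:78042037-78042336, plus strand: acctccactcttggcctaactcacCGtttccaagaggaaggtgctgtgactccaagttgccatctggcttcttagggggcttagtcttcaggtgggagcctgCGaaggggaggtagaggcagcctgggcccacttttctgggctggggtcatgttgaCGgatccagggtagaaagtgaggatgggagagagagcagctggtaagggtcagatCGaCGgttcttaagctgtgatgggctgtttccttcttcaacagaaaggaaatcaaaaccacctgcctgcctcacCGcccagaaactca
Zfp57 start 2, chr17:37002275-37002574, plus strand: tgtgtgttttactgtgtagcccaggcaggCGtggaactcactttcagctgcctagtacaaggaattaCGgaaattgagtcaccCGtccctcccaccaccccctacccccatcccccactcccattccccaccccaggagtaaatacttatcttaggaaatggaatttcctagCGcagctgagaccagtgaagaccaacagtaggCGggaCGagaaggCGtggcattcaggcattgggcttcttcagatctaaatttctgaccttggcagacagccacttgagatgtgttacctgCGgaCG
Tet1, chr10:62887275-62887574, minus strand: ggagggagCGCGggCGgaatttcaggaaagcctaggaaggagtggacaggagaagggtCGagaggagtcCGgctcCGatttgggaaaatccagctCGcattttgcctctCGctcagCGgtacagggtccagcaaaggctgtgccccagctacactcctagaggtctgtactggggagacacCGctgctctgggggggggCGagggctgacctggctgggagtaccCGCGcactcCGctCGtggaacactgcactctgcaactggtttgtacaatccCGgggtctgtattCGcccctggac
Uhrf1 start 2, chr17:56304063-56304362, plus strand: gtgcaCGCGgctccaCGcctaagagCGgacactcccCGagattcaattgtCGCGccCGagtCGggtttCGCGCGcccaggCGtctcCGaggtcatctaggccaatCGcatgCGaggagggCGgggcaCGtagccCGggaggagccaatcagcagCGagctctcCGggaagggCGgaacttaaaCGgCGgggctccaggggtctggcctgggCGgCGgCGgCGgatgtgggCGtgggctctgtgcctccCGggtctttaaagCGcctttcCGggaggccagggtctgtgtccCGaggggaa

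All 10 members had listed sites, but in very unequal numbers. Complete sites numbered 40 for Tet3, 37 for Tet1, 36 for Uhrf1, 17 each for Dnmt3b and Dnmt3l, 14 for Dnmt3a, 12 for Dnmt1, 7 for Tet2, 5 for Zfp57 and 3 for Trim28. The 3 sites assigned to Trim28 lay downstream of it, inside its neighbour Chmp2a, so no complete site fell inside Trim28 itself. Of the 188 sites, 79 lay within 1 kb of an annotated start of their member, and the other 109 lay further away. Values were mostly low near starts and mostly high elsewhere. Below 10% methylation were 74 of the 79 sites near starts (93.7%), against 89.2% of all autosomal sites near starts. Above 80% were 71 of the 109 distant sites (65.1%), 34 of them in Tet3, against 41.7% of all distant autosomal sites. Member sites were placed by the starts of their own gene, and all autosomal sites by the nearest start of any gene. The 9 Dnmt3l sites beside the start of its neighbour Aire therefore counted as distant, and the 2 shares are not fully alike. The 5 sites near starts that were not low belonged to Dnmt3l and Tet3 alone.

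**Figure D1:**
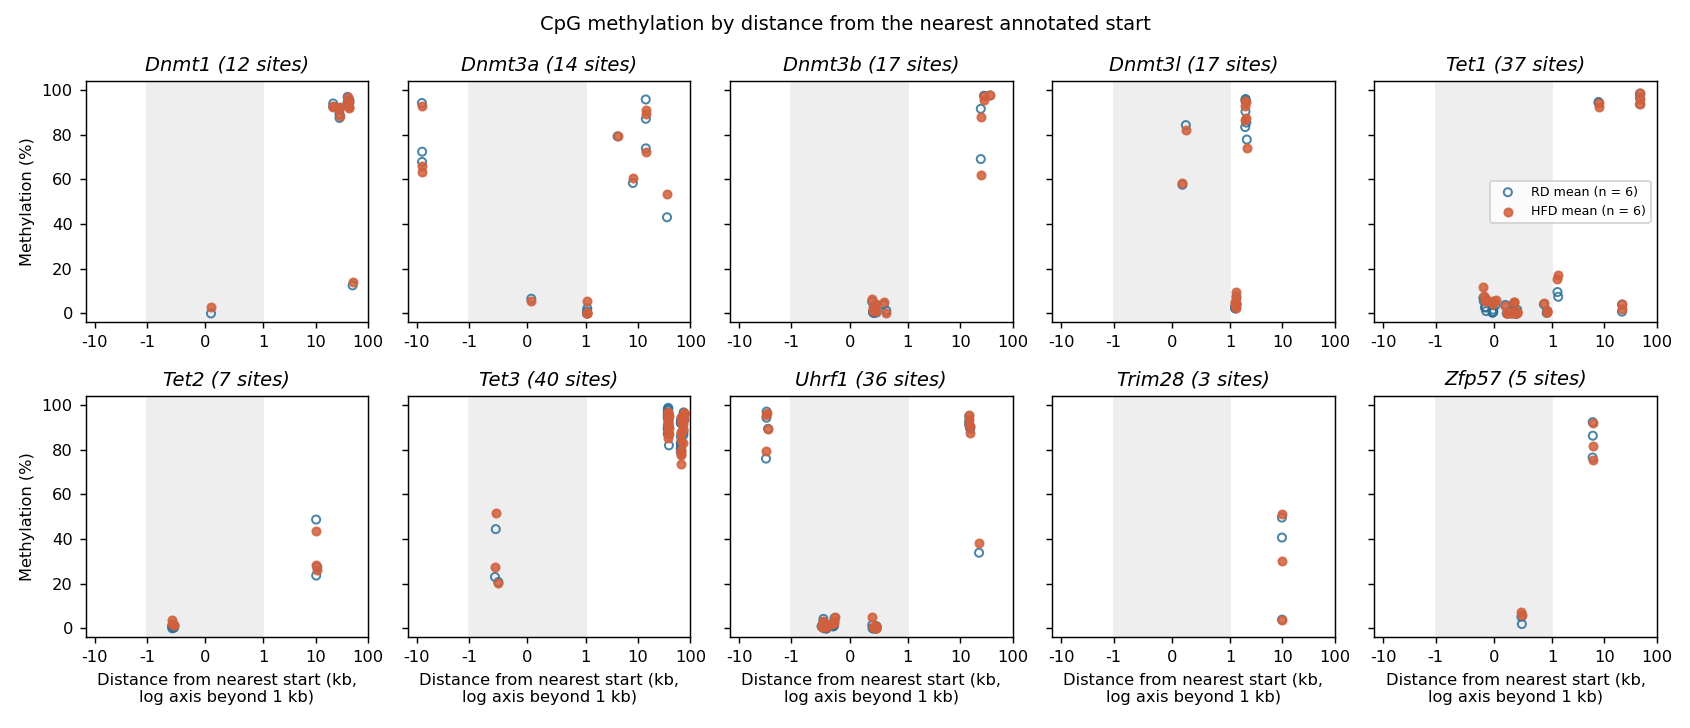
Methylation in percent of each complete site against its distance in kb from the nearest annotated start of its member, with the shaded band marking 1 kb on each side of the start. Filled points are HFD means and open points RD means (n = 6 each); low points fill the band in all genes with sites there except Dnmt3l and Tet3, and the diets nearly coincide at most sites.

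Among the de novo writers, both catalytic genes were low at their starts and methylated further in. Dnmt3b (chr2:153649411-153687730, plus strand) had 12 sites between 387 and 630 bases after its start. Their mean in the HFD samples had a lowest value of 1.24%, a median of 2.35% and a highest of 4.23%, and in the RD samples the values were 0.916%, 1.39% and 2.70%. The groups overlapped, although 3 HFD samples lay above every RD sample. The 5 sites further inside Dnmt3b, from 24773 bases on, ran from 65.4% to 97.6%. At these, HFD samples ran from 85.6% to 90.6% and RD samples from 89.5% to 91.6%, so 4 HFD samples lay below the RD range and 2 inside it.

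Dnmt3a (chr12:3801559-3914443, plus strand), which has 3 annotated starts, was low at the starts with sites. A single complete site lay within 1 kb, 66 bases after start 3, at 6.19% on average and at 1.64% to 13.9% across the samples. Another 4 sites lay 1058 to 1076 bases after start 2, at 0% to 4.01%. All 5 of these sites were in the low class. A further 5 sites within 1 kb of start 2, each with values in only 10 samples, averaged 0% to 3.21%. Inside Dnmt3a, 6 of its 14 sites were intermediate, between 48.1% and 79.3%.

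Dnmt3l (chr10:78042287-78063622, plus strand) had methylated sites beside its start 1. The 2 sites at 183 and 242 bases after start 1 averaged 58.1% and 83.2%. Both also lie inside Aire, an immune regulator gene that is transcribed from the opposite strand and overlaps the front of Dnmt3l, so they cannot be assigned to Dnmt3l alone. No site lay within 1 kb of starts 2 and 3. Their mean ran from 63.4% through a median of 68.9% to 78.9% in HFD samples, and from 63.0% through 69.8% to 77.4% in RD samples. Every sample lay above 60%, and the diets overlapped almost completely. About 1 kb further on the level was low: 9 sites between 1255 and 1328 bases after the same start averaged 4.14%. These sites lie within 100 bases of the start of Aire. Single samples varied there, from 0% to 7.63% in RD and from 0.951% to 12.2% in HFD, the highest being HFD female 2. The 6 sites 1956 to 2099 bases beyond start 3 were again high, at 75.9% to 95.4%. Dnmt3l therefore carried a methylated, an unmethylated and a methylated stretch in that order along its length.

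The maintenance pair was low at the sites measured near starts and heavily methylated in the gene bodies. Dnmt1 (chr9:20907206-20959888, minus strand) had 1 complete site near a start, 98 bases after start 3. It was at 0% in all 6 RD samples and in 3 HFD samples, and at 4.44%, 6.06% and 6.25% in HFD female 3, HFD female 2 and HFD male 4. A neighbouring site with 9 values averaged 6.84%, and no complete site lay within 1 kb of start 1. Depth is unknown, so a value of 0% says only that no methylated read was recorded. The 10 sites in the body of Dnmt1 ran from 87.9% to 96.8%, and a site downstream of the gene stood at 13.3%.

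Uhrf1 (chr17:56303337-56323486, plus strand) had 26 sites between its 2 starts, 389 to 717 bases after start 1, none above 4.88%. Their mean ran from 0.348% through 1.35% to 3.12% in HFD samples, and from 0.318% through 0.723% to 2.23% in RD samples. HFD female 2 alone lay above the RD range. Upstream, 4 sites at -3054 to -2790 bases from start 1 were at 77.7% to 96.7%, so the methylated state ended between there and the 26 low sites. In the body 5 sites stood at 88.3% to 93.1%, and 1 site beyond the gene's end, in Kdm4b, at 36.0%.

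Of the 3 erasers, Tet1 and Tet2 were low near their starts, and Tet3 was low at its outer end but not beside the start in the promoter table. Tet1 (chr10:62804570-62887469, minus strand) had 28 sites within 1 kb, at 0% to 9.39%. Their mean ran from 1.44% through 3.07% to 4.86% in HFD samples, and from 0.440% through 1.41% to 2.72% in RD samples. HFD male 3, HFD male 4 and HFD female 4 lay above all RD samples, and the remaining 3 lay inside the RD range. A pair of sites 1266 and 1306 bases into the gene was at 12.5% and 12.4%, and 5 sites deeper in the body reached 93.6% to 97.5%. Between those lay 2 low sites 21592 and 21627 bases from the start, at 1.30% and 4.05%. Most Tet1 sites, 34 of 37, also lie within the annotated gene Gm51805, so they cannot be assigned to Tet1 alone.

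Tet2 (chr3:133463677-133545136, minus strand) had 4 sites at -572 to -532 bases from its annotated start, which is 174 to 214 bases inside the outer 5′ end of the gene's extent. Their mean was at most 1% in RD samples and reached 5.79% in HFD male 3 and 4.40% in HFD male 4, whereas the other 4 HFD samples stayed at or below 0.926%. The 3 body sites, 10108 to 10669 bases downstream, were intermediate at 26.1% to 46.2%, so no Tet2 site was above 80%.

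Tet3 (chr6:83362373-83457208, minus strand) was the other member with raised values near an annotated start, a start that lies well inside the gene's extent. Its 3 sites lay at -558 to -500 bases from the start, inside Tet3's longer annotated extent and inside the noncoding gene B230319C09Rik, and averaged 20.5%, 47.9% and 25.3%. The mean ran from 22.3% through 33.2% to 40.3% in HFD samples, and from 18.2% through 29.4% to 39.7% in RD samples. These were the widest ranges of any start among the 10 genes with 3 or more sites. They lay above every Tet1 and Tet2 value, which reached at most 5.79%, although the sites compared lie at different distances from the starts. At the outer 5′ end of Tet3, 8 incomplete sites 254 to 323 bases inside the gene, with 11 values each, averaged 0.909% to 2.46%. The other 37 complete Tet3 sites were in its body, at 76.8% to 97.5%, the largest methylated block of the set.

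Of the imprint protectors, Zfp57 (chr17:37001163-37010729, plus strand) did not share the methylated start of Dnmt3l at the sites measured. Its 2 sites within 1 kb, 472 and 480 bases after start 2, averaged 6.19% and 3.86%. The mean was 0% in 4 of the 12 samples and had a median of 2.77% in HFD and 2.32% in RD. HFD male 3 at 21.4%, RD female 1 at 13.8% and HFD male 2 at 12.0% stood above the remaining 9 samples, which reached at most 3.03%. All 12 samples thus lay below the lowest Dnmt3l value of 63.0%. The 3 sites in the Zfp57 body, 5932 to 5992 bases beyond start 3, were methylated at 75.8%, 92.1% and 83.9%. The 2 low sites also lie within 1 kb of start 3, and no complete site lay within 1 kb of start 1.

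For Trim28 (chr7:13024152-13031032, plus strand) only incomplete sites describe the start: 3 sites 731 to 742 bases after it, with 9 values each, averaged 3.33% to 7.60%. The 3 complete sites in Chmp2a, 9822 to 9879 bases from the Trim28 start, averaged 50.3%, 35.4% and 3.73%.

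A set of 16 germline genes served as a reference for the germline label, and 7 of them had a start window with at least 3 complete sites. These 7 windows ran from 58.6% at Mael, a piRNA pathway gene, to 94.5% at Dazl, a germ cell RNA-binding protein gene. Their median was 76.4%. Germline genes with complete sites but no such window varied widely over their regions. Tex15 averaged 3.61%, Tdrd1 25.5%, Tdrd9 52.4%, Piwil2 75.2%, Piwil1 85.5% and Asz1 93.9%. The Dnmt3l level of 70.6% fell within the range of the 7 windows, and the Zfp57 level of 5.03% fell below it. Each of these levels rests on 2 sites, fewer than the 3 required of the reference windows. Of 38 further genes linked to DNA methylation, 22 had 25 such windows, and all 25 were below 10%. The highest were Zbtb4 (5.23%), which encodes a methylation reader, and Mbd3 (3.82%), which encodes a subunit of the NuRD complex, and the lowest were Gadd45a (0.330%), a demethylation adaptor gene, and Cdca7 (1.01%), a partner of the remodeler HELLS. Dnmt1, Dnmt3a, Dnmt3b, Tet1, Tet2 and Uhrf1, at 1.27% to 6.19%, lay close to this low group.

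**Figure D2:**
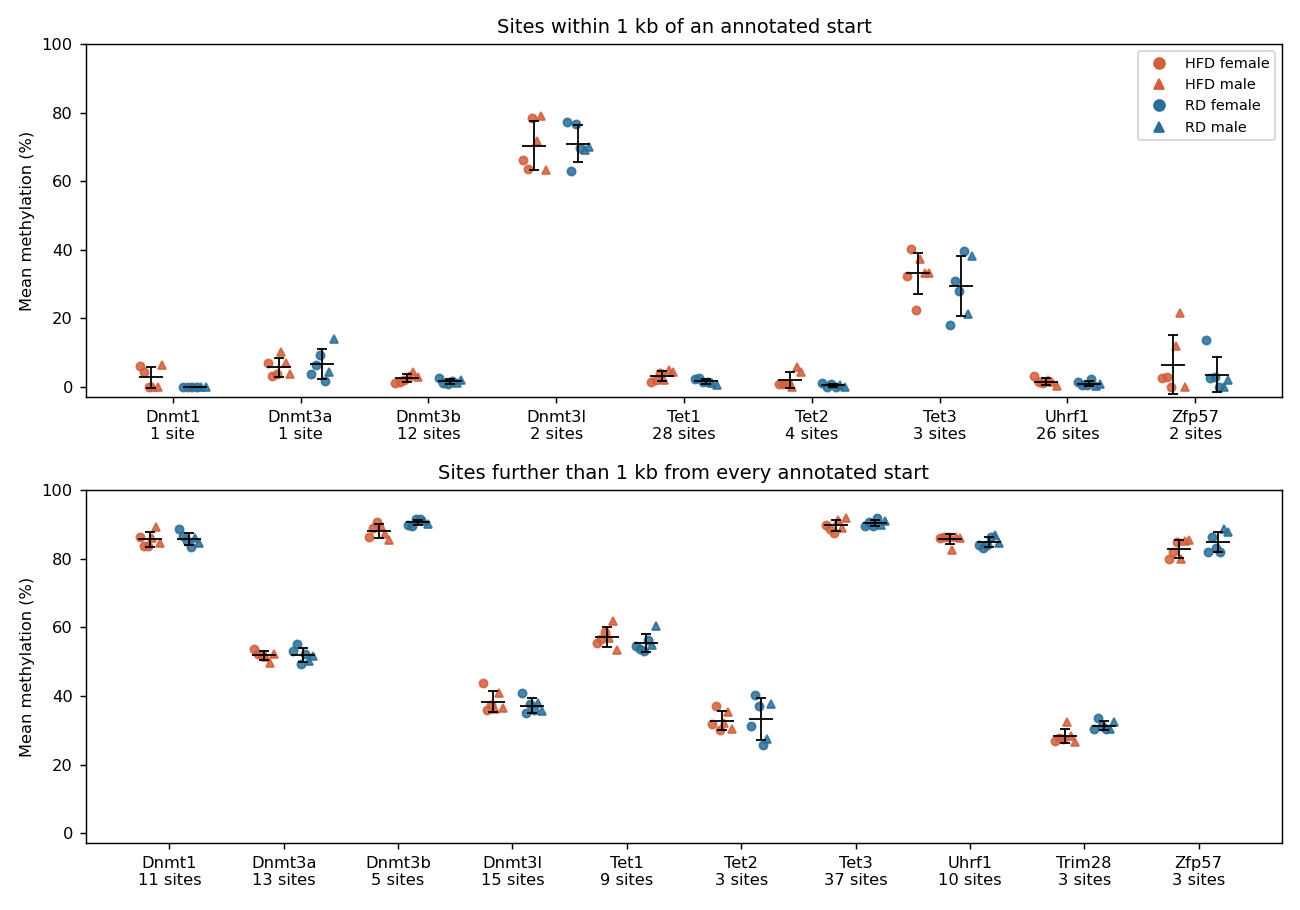
Mean methylation in percent per sample for sites within 1 kb of a start (upper panel) and for sites further away (lower panel), by member, with circles for females, triangles for males, and black marks for the mean ± SD of each diet (n = 6). Near starts, Dnmt3l sits above 60% in every sample and Tet3 between 18.2% and 40.3%, while the other genes are near the floor apart from 3 Zfp57 samples and single samples of Dnmt3a.

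The question of the study was whether the diet of the mother alters methylation in the offspring heart. For the mean over all sites of a gene region (the gene and 5 kb on each side), the diets did not differ at any of the 10 members after adjustment: 0 of 10 passed an adjusted p of 0.05 in limma, against 0.104% of all 19279 regions. Without adjustment 1 of 10 was below 0.05, against 7.46% of all regions. HFD had the higher mean at 5 of the 10, against 49.7% of all regions, and the samples of the diets overlapped at all 10, with 0.612% of all regions showing no overlap.

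For 9 of the 10 the diets' means lay within 1.6 points of each other over complete sites, and adjusted p-values in limma ran from 0.531 to 0.999 over all 10. Tet1 was 16.2% ± 1.54 in HFD and 14.7% ± 0.440 in RD (SD, n = 6 each), a difference of 1.55 points (limma adjusted p = 0.700). With sex in the model the 95% confidence interval of the Tet1 difference was -0.0897 to 2.99 points. The narrowest interval was that of Uhrf1, -0.391 to 1.84, followed by Dnmt3b, -1.32 to 0.941, and the widest was that of Dnmt3l, -2.35 to 4.58. The intervals bound the size of a change over a whole region, where low and high sites are averaged together. When sites with missing values were allowed, so that each sample's mean covered the sites it had, the differences were -5.04 points for Dnmt3a, -2.42 for Zfp57, -2.31 for Tet3, 1.53 for Dnmt1, 1.11 for Uhrf1, -0.863 for Tet1 and 1.77 for the Trim28 region. In that setting 0 of 10 passed adjustment in limma.

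The region with the smallest p was that of Trim28, whose values came from Chmp2a. HFD samples had a lowest value of 26.7%, a median of 27.6% and a highest of 32.4%, and RD samples 30.2%, 30.8% and 33.7%. All HFD samples but HFD male 2 lay below the RD range. The means were 28.2% ± 2.09 and 31.4% ± 1.42 (SD, n = 6 each; limma adjusted p = 0.531). The difference lay mostly at the site chr7:13033977, inside Chmp2a, at 30.1% ± 2.97 in HFD and 40.6% ± 5.45 in RD, a difference of -10.5 points. The HFD values, 26.1% to 33.3%, lay below the RD values, 33.7% to 48.7%. This site was the 1 of 87 tested whose diets did not overlap, against 0.482% of all sites tested, and it did not pass adjustment (limma adjusted p = 0.667).

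**Figure D3:**
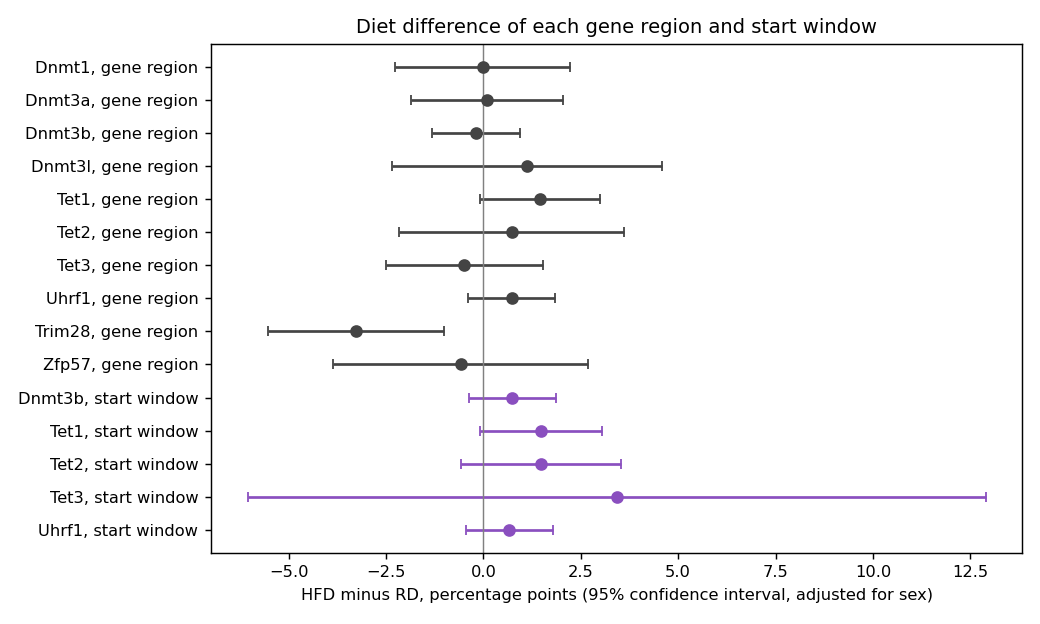
Difference between the diets (HFD minus RD, in percentage points, adjusted for sex) with its 95% confidence interval for the region of each member and for the 5 start windows with at least 3 complete sites. All intervals include 0 except that of the Trim28 region, whose sites lie in Chmp2a and whose limma p did not pass adjustment, and the Tet3 start window has the widest interval, -6.05 to 12.9.

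At starts, 5 members had the 3 complete sites needed for a test, and 0 of 5 passed adjustment in limma, against 0.0844% of 8297 windows. None was below 0.05 without adjustment, against 6.35%. The diets overlapped at all 5, with 0.603% of all windows showing no overlap. The HFD mean was the higher of the pair in 5 of 5, against 56.5% of all windows. Members with too few sites for a test went both ways. HFD was higher at Dnmt1 (2.79% against 0%) and Zfp57 (6.49% against 3.56%). It was lower at Dnmt3a (5.78% against 6.60%) and Dnmt3l (70.4% against 70.9%). In the 5 tested windows the differences were 0.915 points at Dnmt3b, 1.51 at Tet1, 1.70 at Tet2, 3.73 at Tet3 and 0.562 at Uhrf1. Tet1 had the smallest p, with 3.10% ± 1.45 in HFD and 1.58% ± 0.803 in RD (SD, n = 6 each; limma adjusted p = 0.800). HFD male 3 was the highest of the 12 samples at Dnmt3b, Tet1 and Tet2. Without it the differences were 0.569, 1.16 and 0.966 points, with 3.68 at Tet3 and 0.602 at Uhrf1, all still positive. The sizes also depended on other samples: the median of the 5 differences was 0.966 points without HFD male 3 and 1.85 without HFD female 2.

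The 90 low sites, those below 10% on average, which belong to 9 members (Tet3 has none), were also averaged per sample. Of these, 70 are sites of the start windows just described, so the mean is not a separate observation. It was 2.75% ± 0.907 in HFD and 1.62% ± 0.601 in RD (SD, n = 6 each), and the ranges, 1.62% to 4.27% and 1.12% to 2.73%, overlapped. Without HFD male 3 the HFD mean was 2.45%. Over all 149165 low autosomal sites the same samples gave 2.40% ± 0.485 and 2.20% ± 0.654. No test was run on this mean, since the genes were chosen with results of these data known. HFD male 3 and RD female 1 had the highest residual methylation over all low sites, 3.11% and 3.12%, and the same 2 samples were the highest at Zfp57. The part of these sample levels in the members' values was not tested. At the 72 sites above 80%, HFD gave 91.6% ± 0.417 and RD 92.0% ± 0.463.

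**Figure D4:**
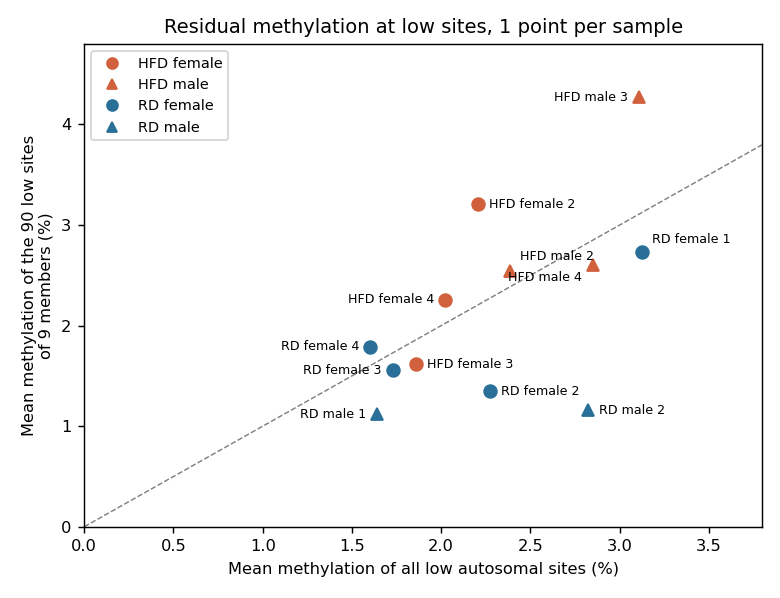
Mean methylation in percent of the 90 low sites of 9 members, Tet3 having none (vertical) against the mean of all low autosomal sites (horizontal), with 1 point per sample and the dashed line where both are equal. HFD male 3 is highest on the vertical axis at 4.27%, and RD male 2, RD male 1 and RD female 2 are the lowest there, with RD male 2 high on the horizontal axis.

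In 500-base tiles with at least 3 sites and a mean of 5 to 95%, 15 tiles in 7 members were tested, and 0 passed adjustment in limma, against 0.0294% of 23776 tiles. Below 0.05 without adjustment was 1 tile, against 7.81% of all. It lay in the body of Tet3 (5 sites, chr6:83403685-83403880), at 92.3% ± 1.55 in HFD and 94.9% ± 2.31 in RD (SD, n = 6 each; limma adjusted p = 0.616). Next in order was a Dnmt3a tile upstream of start 3 (chr12:3883724-3883792), where HFD averaged 74.2% and RD 78.1% (adjusted p = 0.686 in limma). A Tet1 tile (chr10:62886018-62886465) averaged 6.68% for HFD and 3.87% for RD (adjusted p = 0.709 in limma). Among the other members, the tile nearest to passing differed by -2.10 points in Zfp57 (chr17:37009598-37009658), -2.14 in Dnmt1 (chr9:20909123-20909197), 1.35 in Uhrf1 (chr17:56300283-56300354) and 0.319 in Dnmt3l (chr10:78057291-78057434). The diets overlapped in all 15 tiles, while 0.627% of all tiles had no overlap.

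Of the 188 sites, 87 had a mean of 5 to 95% and were tested singly; 0 passed in limma, against 0.0102% of 157524, and 4 below 0.05 without adjustment, against 6.53% of all. Beside the Chmp2a site these were chr6:83375843 and chr6:83403848 in Tet3 and chr10:62886018 in Tet1. The first Tet3 site stood at 87.3% ± 4.36 in HFD and 93.3% ± 4.09 in RD, and the other at 90.7% and 95.8%. The Tet1 site was higher in HFD, at 17.4% ± 9.72 against 7.47% ± 10.1 (SD, n = 6 each). At that site HFD samples ran from 10% to 35.7% and RD samples from 0% to 26.9%, where RD male 2 was the sole RD sample above 8.33%. In the remaining members the site nearest to passing differed by -7.30 points in Dnmt3b (chr2:153674222), -6.25 in Dnmt3a (chr12:3883792), -4.66 in Zfp57 (chr17:37009658), -3.73 in Uhrf1 (chr17:56319186), -2.79 in Dnmt1 (chr9:20909183), 4.87 in Tet2 (chr3:133534221) and 3.16 in Dnmt3l (chr10:78057291). None of these 7 had a limma p below 0.05.

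The diet difference was also compared between the sexes, with an interaction term in limma. For 0 of 10 members did it pass adjustment, against 0% of 19279 regions, and 0 of 10 were below 0.05 without adjustment, against 5.10%. The RD side of the male difference rests on 2 animals.

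The tissue holds several cell types, and in bulk DNA a change in their shares cannot be told apart from a change of methylation within them. The marker lists were chosen with earlier results of these data known, so they are not an independent check of cell shares. Of 6 endothelial marker regions, all had a lower mean in HFD and 2 passed in limma, against 0.104% of all regions. These were Egfl7 at 15.9% against 26.5% and Pecam1 at 39.4% against 49.2%. At 3 of the 6 the samples of the diets did not overlap, against 0.612% of all regions. The mean over those 6 ran from 34.1% to 37.6% in HFD samples and from 39.9% to 45.5% in RD samples. Of 7 cardiomyocyte regions 0 passed, with ranges of 55.9% to 59.9% and 57.9% to 59.3%, and of 2 fibroblast and 5 blood and immune regions 0 passed. The HFD mean was also the lower at 6 of the 7 cardiomyocyte, 4 of the 5 blood and immune and 1 of the 2 fibroblast regions. The median difference was -7.09 points for the endothelial list, -1.48 for cardiomyocyte, -1.45 for blood and immune and -0.356 for fibroblast regions. Low methylation at cardiomyocyte starts cannot check the left ventricle label, since 6935 of all 8297 start windows were below 10%. The part of these marker levels in the members' values was not tested.

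Of the 36 other methylation genes with a tested region, 0 passed in limma and 2 were below 0.05 without adjustment. The median HFD minus RD difference over start windows was 1.51 points for the 5 of the members, 0.321 for the 25 of these other genes and 0.135 for all. Without HFD male 3 these medians were 0.966, 0.254 and 0.0254. Sites of the members were also about as variable between samples as others of their class. The median SD per site was 1.86 points at low member sites and 2.03 at all low sites, 7.93 against 8.03 at intermediate sites, and 3.98 against 4.55 at high sites.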

How the data were processed

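RRBS was run on left ventricle DNA of 12 offspring, per the labels. The authors deposited percent methylation per CpG with no read counts, so depth and counting error are unknown and no single value has an interval. The submitters' processing notes name mm10, Bismark 0.19, Trim Galore, FastQC and limma; the coverage minimum is not given in the sources used here. Gene extents and promoters came from RefSeq tables of GRCm38.p6, and 39848 of 39856 table positions inside promoter sequences (99.98%) fell on a CpG. Exons and introns were not used here. No columns were left unmatched (0).

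Rates as fractions were turned into log2((rate + 0.05)/(1 − rate + 0.05)) and fitted with limma 3.58.1 (R 4.3.3) on diet and sex, over autosomal sites complete in 12 samples. Tests covered gene regions (gene and 5 kb), windows of 1 kb on each side of a start and 500-base tiles, all with at least 3 sites, and single sites; tiles and sites had mean rates of 5 to 95%. P-values were Benjamini-Hochberg adjusted over all features, and differences and intervals are in untransformed points. The fit was tested on simulated data. Members and gene lists were chosen with earlier results of these data known. All 10 members are named, with the tile and site of smallest p in each; of other pathway genes the highest and lowest 2 start windows are named, beside the range of the germline list. Sites of single members within 1 kb were described without a test where fewer than 3 existed. Alternatives covered the offset, transformation, variance prior, sex term, replicate block, rate limits, flank, window, missing values, minimum sites and each sample left out.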

Additional observations from a re-analysis of the deposited data

Results flagged for a closer look

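Within each diet, 103 sets of 6 values were examined for a highest or lowest sample whose distance to its neighbour took most of the range (Dixon's test at 95%). There were 8 such values, some from the same sample, and chance gives about 5.15 for independent, normally distributed sets. Some of these sets share sites, so that count is only a rough guide. In Zfp57, RD female 1 stood at 13.8% for the sites near start 2 against at most 2.94% in other RD samples, and HFD male 3 stood at 59.7% for the region against 48.9% to 52.7% in other HFD samples. In Tet1, RD male 2 stood at 26.9% at chr10:62886018 against at most 8.33% in the other RD samples, and at 9.25% in the tile that holds this site against 1.04% to 3.48%. HFD male 2 stood at 32.4% over the Trim28 region against 26.7% to 28.3% in other HFD samples, and at 82.7% over the distant Uhrf1 sites against 85.9% to 86.5%. Over the whole table HFD male 4 had the fewest sites with a value in its group, 385299, and the lowest mean at high sites, 90.3% against 90.7% to 90.8%.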

How the results depend on the processing

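In all 94 alternative fits 0 members were called. Counts over all features moved more. For gene regions (20 called), an offset of 0.01 gave 12, the gene without flank 8, missing values allowed 8, at least 10 sites 8, and leaving out a sample 5 to 19 (5 each without HFD male 4, RD female 1, RD female 3 or RD male 2). For start windows (7), an offset of 0.01 gave 1, a trend and robust prior 1, rates of 5 to 95% 4, missing values allowed 2, and leaving out a sample 0 to 6. For tiles (7), untransformed rates gave 17, no sex term 13, and leaving out a sample 3 to 11. For sites (16), untransformed rates gave 78, a trend and robust prior 31, no sex term 27, no rate limit 39, and leaving out a sample 0 to 22. For the interaction (0), leaving out a sample gave 0 to 40, the 40 without RD male 1, which leaves 1 RD male assumed to vary like the others. The cause of these shifts was not tested. No pairing by sample number was seen: the correlation of deviations was -0.0757 to 0.0392 for 13 same-number pairs and -0.133 to 0.185 for others. Same-number pairs include pairs across the diets, which cannot share a mother, so these values cannot exclude a link within litters. A replicate block gave 3 regions, 0 start windows, 3 tiles, 0 sites and 0 interactions.

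Member differences near 0 changed sign in some fits: Dnmt1 was -0.0385 points without flank and -0.541 to 0.606 on leaving out a sample, Dnmt3a -0.541 to 0.489, Dnmt3b -0.307 to 0.171, Tet3 -0.690 to 0.255 and Zfp57 -1.55 to 0.601. Allowing sites with missing values turned Tet1 to -0.863 and the Trim28 region to 1.77, and moved Dnmt3a to -5.04, the largest member difference in any of these fits, Zfp57 to -2.42, Tet3 to -2.31 and Dnmt1 to 1.53. Limits: depth is unknown, 109 sites lie far from starts, and Dnmt1, Dnmt3a, Dnmt3l and Zfp57 have only 1 or 2 complete sites within 1 kb of a start. Sites in overlapping or neighbouring genes number 34 for Tet1, 10 for Dnmt3l (both start sites included), 4 for Dnmt3a, 3 each for Tet3 and Trim28 and 2 for Uhrf1.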
